A study of Mus musculus with 2 samples.

Results

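The simple epithelial keratins are represented by 4 genes, Krt7, Krt8, Krt18 and Krt19, chosen by name, which are 4 of the 2000 genes in the deposited table. Keratins build the intermediate filaments of epithelial cells, and a filament needs a type II keratin (Krt7 or Krt8) joined to a type I keratin (Krt18 or Krt19). Krt8 and Krt18 are the basic pair of single-layered epithelia, whereas Krt7 and Krt19 are known from ducts. In the pancreas Krt19 and Krt7 mark duct cells, and ductal adenocarcinoma cells keep this keratin set.

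The data came from 2 single-cell RNA libraries of whole pancreatic tumors from C57/BL6 mice of unstated age, 1 per genotype, and each library pooled the tumors of 3 mice. MT4, a pancreatic adenocarcinoma organoid line of KPC origin, was placed in the pancreas of every mouse, and tumors were taken 14 days later, digested with collagenase and DNase, sorted for live cells with DAPI and loaded on 10X Chromium. One library came from Ahr fl/fl mice, which carry floxed alleles of the aryl hydrocarbon receptor gene Ahr. The other, called Ahr cKO here, came from mice with the floxed alleles and LysM-Cre, a Cre that acts mainly in macrophages, monocytes and neutrophils of the host. The implanted tumor cells come from the same line in both groups, and the labels name no change of Ahr in that line. Each genotype is a single library, so differences between genotypes have no test and no replicate check, and the pooled animals cannot be told apart.

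The table held 5196 fl/fl and 4577 cKO cells. Its values are scaled per gene, in SD units, and capped at 10. In the fl/fl library, 99.99% of the 791238 values below the cap were whole multiples of one step per gene and per cell, which gave back whole molecule counts (UMIs) and each cell's total. Totals ranged from 499 to 101351 UMIs with a median of 2003. In the cKO library 50.05% of values lay at the fl/fl zero level, 18.6% below it and 31.3% above it, so no counts, shares or folds are given there. The libraries shared 656 cell barcodes, 12.6% of fl/fl and 14.3% of cKO cells. Their profiles were alike (median Pearson correlation over 2000 genes 0.43, against 0.073 with the next barcode listed), and 621 of the 656 fell in the same class or cluster in both libraries. Among the tumor cells described here they were 1 fl/fl and 2 cKO cells. Ahr was detected in 18.2% of Macrophage-like and 17.5% of Epithelial-like fl/fl cells, and its scaled difference (cKO minus fl/fl) was 0.16 in both classes. Monocyte-like cells had a share of 21.1% and a difference of 0.047, and Neutrophil-like cells 1.80% and 0.00086. The deleted part of Ahr is not given in the sources used here, so this does not check the genotype.

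Krt7, Krt8 and Krt18 lie together on mouse chromosome 15 (GRCm38, GENCODE) and Krt19 lies on chromosome 11. Krt7 spans chr15:101411043-101430313 on the plus strand, Krt8 chr15:101996698-102004482 on the minus strand, Krt18 chr15:102028180-102032027 on the plus strand and Krt19 chr11:100140810-100148665 on the minus strand. Krt8 and Krt18, a type II and a type I gene, are neighbours pointing away from each other, with 23697 bases between them. The main transcripts have 9 exons in Krt7 and Krt8, 7 in Krt18 and 6 in Krt19. RefSeq promoter windows (GRCm38.p6, 250 bases before the start) were found for 3 of the 4 genes. Of these bases 140 in Krt8, 36 in Krt18 and 1 in Krt7 lay in exons of the main GENCODE transcript. The Krt7 window lies inside the gene span given above. The windows are shown because the 3 genes had their RNA in the same cells. From each, 100 bases are given, the nearest to the start that lie outside those exons. Capitals mark matches to the GC box (Krt7) and to the core letters of the AHR binding site (Krt18), on either strand.
Krt7 (chr15:101412302-101412401, plus strand): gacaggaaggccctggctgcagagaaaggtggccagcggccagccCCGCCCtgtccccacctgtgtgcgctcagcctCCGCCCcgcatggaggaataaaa
Krt8 (chr15:102004483-102004582, minus strand): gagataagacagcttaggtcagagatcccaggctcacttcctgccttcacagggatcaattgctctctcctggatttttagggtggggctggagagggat
Krt18 (chr15:102028080-102028179, plus strand): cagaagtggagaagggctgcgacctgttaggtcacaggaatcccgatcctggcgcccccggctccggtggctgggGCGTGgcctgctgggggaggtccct
The windows differed in the 4 motifs searched on both strands. Krt7 held 4 GC boxes (GGGCGG), 2 of them in the bases printed, a motif in 32.7% of 32851 mouse windows of the same length. Krt18 held 2 AHR cores (GCGTG), 1 of them in the bases printed, a motif in 28.2% of windows. Neither these motifs nor a TATA box (TATAAA, 12.4% of windows) nor an AP-1 site (TGANTCA, 6.75% of windows) was found in the Krt8 window, and the TATA box and AP-1 letters were also not found in the windows of Krt7 and Krt18. A match is a description of letters, and no match says only that those letters are not in the window.

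The tumor cells were found without using any keratin. Both libraries were clustered together after leaving all keratin genes out, and 2 clusters were called Epithelial-like from 19 other epithelial markers. These clusters held 777 fl/fl and 181 cKO cells. The larger was led by Clu, Onecut2 and Wfdc2 (516 and 139 cells), and the smaller by Lgals2, Lgals4 and Iigp1 (261 and 42 cells). The adhesion gene Cdh1 was detected in 35.3% of Epithelial-like fl/fl cells against 1.72% of all other fl/fl cells, and the surface marker Epcam in 15.2% against 2.58%. Clu was detected in 88.4% against 6.61% and Wfdc2 in 62.7% against 2.01%. Of the 19 markers, 3 were no more frequent in the class than outside it: Spint1 (2.19% against 5.75%), Lcn2 (18.4% against 20.2%) and Tff1 (0.129% against 0.837%). Cells with markers of another cell family (possible doublets) made up 8.88% of the class in fl/fl (69 cells) and 16.0% in cKO (29 cells) and were kept. The class made up 14.95% of fl/fl cells (exact Clopper-Pearson 95% interval 13.99% to 15.95%) and 3.95% of cKO cells (3.41% to 4.56%). These shares also carry how much tumor and other tissue went into each pool, and all intervals here cover counting error only.

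All 4 keratins were concentrated in this class. Krt8, the type II partner of Krt18, was the most widely detected, in 612 of 777 Epithelial-like fl/fl cells (78.8%, 75.7% to 81.6%). Krt7, the ductal type II keratin, was the least, in 407 cells (52.4%, 48.8% to 55.9%). Among the type I keratins, Krt18 was detected in 590 cells (75.9%, 72.8% to 78.9%) and Krt19 in 564 cells (72.6%, 69.3% to 75.7%). The intervals of Krt8 and Krt18 overlap, as do those of Krt18 and Krt19, and the interval of Krt7 lies below the others. In the 4419 other fl/fl cells the same genes were detected in 1.20% (Krt7), 4.57% (Krt8), 3.51% (Krt18) and 3.24% (Krt19) of cells. With finer clusters (resolution 2), where 1 cluster lost the class name, these shares were 2.46%, 7.11%, 5.99% and 5.75%. The median total was 1268 UMIs in Epithelial-like and 2105 in all other cells, so the class with the higher shares was the shallower one by median. Its depth was uneven, with 5000 UMIs or more in 201 of the 777 cells, so the median alone does not settle which was deeper.

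By summed level Krt8 was also highest and Krt7 lowest, while Krt19 stood slightly above Krt18. Epithelial-like fl/fl cells held 7.59 UMIs of Krt7 per 10000 (exact Poisson 95% interval 7.34 to 7.84), 34.1 of Krt8 (33.6 to 34.7), 23.5 of Krt18 (23.1 to 23.9) and 24.9 of Krt19 (24.4 to 25.3). In these sums deep cells weigh more. Over single cells the means were 5.25, 22.3, 16.6 and 16.8 UMIs per 10000 in the same order. The medians were 2.00, 17.4, 13.3 and 12.8, so by median Krt18 stood above Krt19. By summed level each gene was 175 to 186 times higher than in all other cells, where the summed levels were 0.0425, 0.183, 0.134 and 0.138 UMIs per 10000. These UMI counts are not corrected for length. Per kilobase of the main transcript, which has 4094 bases in Krt7, 1958 in Krt8, 1437 in Krt18 and 1576 in Krt19, the 4 genes took 3.60%, 33.9%, 31.8% and 30.7% of their joint signal. On that scale Krt8, Krt18 and Krt19 stood close together and Krt7 far below. A UMI stands for a single molecule whatever its length, so the uncorrected scale is the nearer to molecules. The per-kilobase shares lower Krt7 for its long transcript and are given as a description only. The kit's tagged end is not given in the sources used here. The annotation also holds a Krt8 pseudogene and a gene antisense to the Krt8 start, and strand use in the counting is not given, so the Krt8 counts carry that uncertainty.

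**Figure D1:**
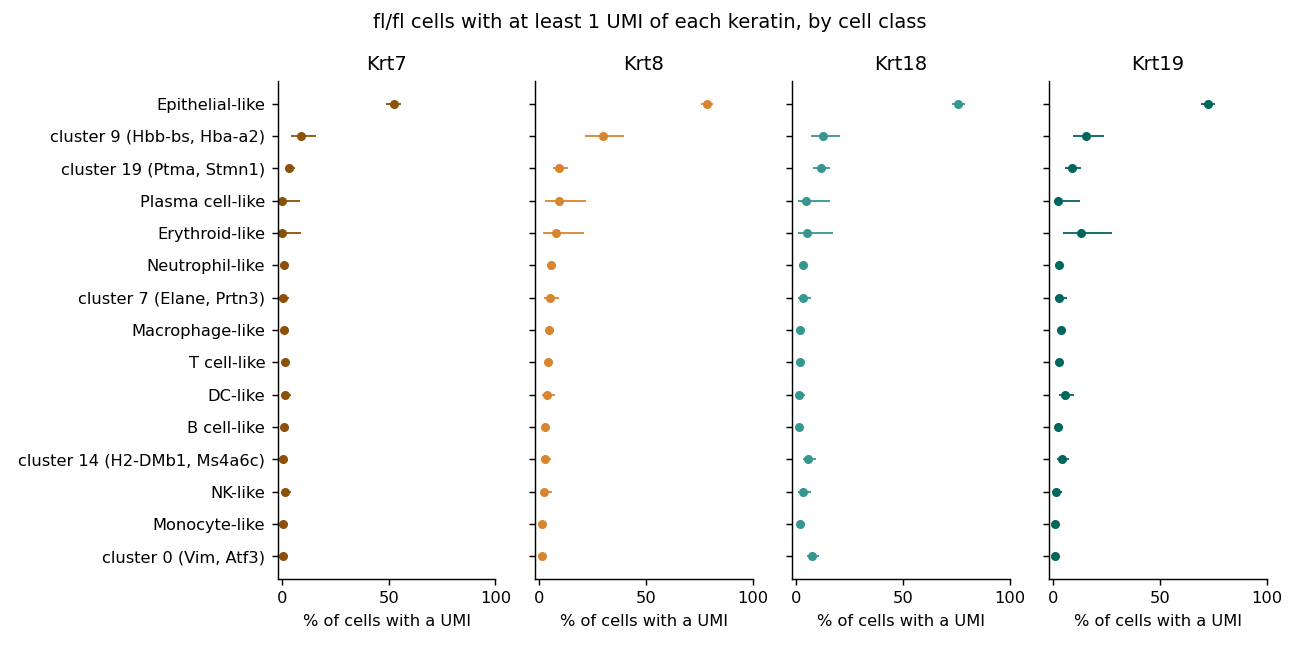
Percent of fl/fl cells with at least 1 UMI (x axis) of each keratin, by cell class or unnamed cluster with its 2 leading genes (y axis). Points are shares and bars exact 95% intervals. Epithelial-like cells lie between 52.4% and 78.8%. The next, an unnamed cluster with hemoglobin and collagen genes among its leading genes, reaches 29.8% for Krt8.

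Most Epithelial-like cells held several keratins at once. All 4 were detected in 320 cells (41.2%, 37.7% to 44.7%), 3 in 176 cells, 2 in 133, 1 in 99 and none in 49 (6.31%, 4.70% to 8.25%). The most frequent incomplete set was Krt8, Krt18 and Krt19 without Krt7, in 127 cells (16.3%), followed by Krt8 with Krt18 in 47 cells (6.05%). A keratin of each type, as a filament needs, was detected in 589 cells (75.8%, 72.6% to 78.8%). Type II alone was seen in 61 cells (7.85%) and type I alone in 78 cells (10.0%). The number detected moved with depth: the median total was 7713 UMIs in cells with all 4 and 771 UMIs in cells with none.

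Every keratin was detected in more of the deeper cells. In the 221 Epithelial-like cells with under 800 UMIs, Krt7 was detected in 24.0%, Krt8 in 60.6%, Krt18 in 51.1% and Krt19 in 47.5%, and 13 cells (5.88%) held all 4. In the 100 cells with 15000 UMIs or more, Krt8, Krt18 and Krt19 were detected in every cell and Krt7 in 99. No cell with 5000 UMIs or more lacked all 4. Thinned to 500 UMIs per cell, leaving out 1 shallower cell of the library, the shares over the whole class were 22.2% for Krt7, 57.5% for Krt8, 50.2% for Krt18 and 48.7% for Krt19. In all other cells they were 0.382%, 1.58%, 1.14% and 1.05%.

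The share of a cell's UMIs taken by keratins was also highest in the deepest cells, though it did not go up at every step. Under 800 UMIs the means per 10000 were 4.29 for Krt7, 19.2 for Krt8, 14.7 for Krt18 and 12.1 for Krt19. Krt8 averaged 17.2 UMIs per 10000 (SD 17.3 over 256 cells) from 800 to under 2000 UMIs and 39.2 (SD 20.5 over 100 cells) at 15000 or more. The corresponding means were 4.14 (SD 6.35) and 8.58 (SD 5.32) for Krt7. Krt18 averaged 13.6 (SD 13.3) and 27.0 (SD 14.4). Krt19 averaged 13.8 (SD 15.6) and 29.1 (SD 17.6). The deepest cells had the higher mean for all 4 genes, while the spreads over cells overlapped. Whether these deep cells differ in cell size, state or number of cells per droplet was not tested.

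**Figure D2:**
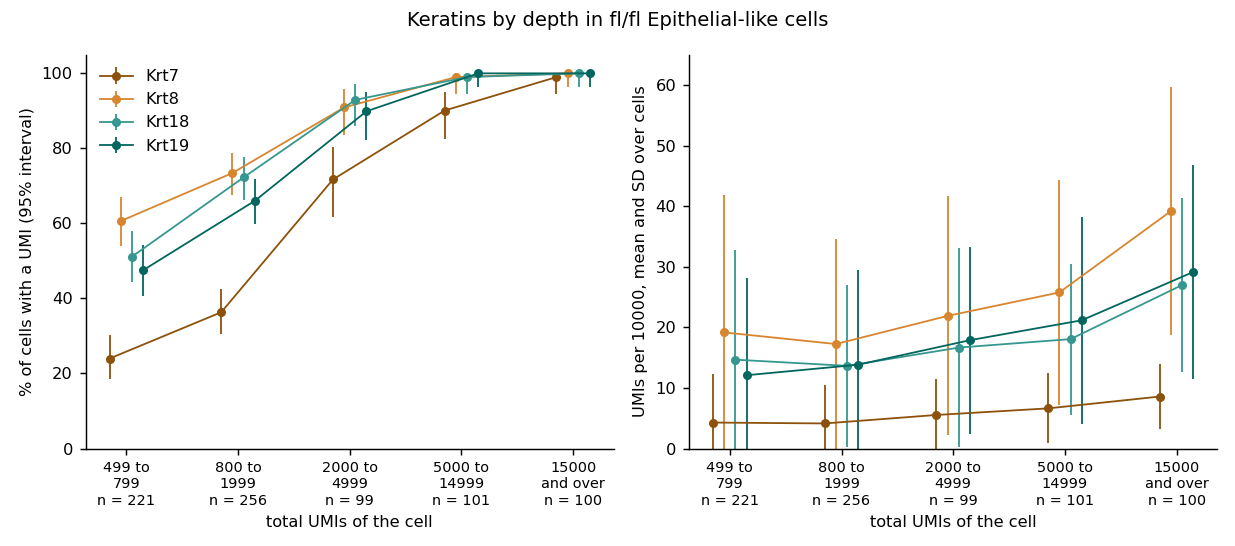
Keratins in fl/fl Epithelial-like cells by the cell's total UMIs (x axis, with the number of cells). Left, percent of cells with a UMI and exact 95% intervals, reaching 99% or 100% for every keratin; right, mean UMIs per 10000 with the SD over cells, highest in the deepest cells for all 4 genes.

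Cells with no keratin were shallow and held fewer UMIs of the other epithelial markers. Their 19 markers summed to 51.3 UMIs per 10000 (44.6 to 58.6), against 88.2 (87.3 to 89.1) in cells with all 4 keratins. B cell markers, 6 of 6 detected in both groups, summed to 27.3 (22.5 to 32.8) in cells with none and to 0.364 in cells with all 4. Macrophage markers summed to 14.9 and 1.56 and hemoglobin and other erythroid markers to 22.3 and 3.28. Monocyte markers summed to 22.8 and 25.6, with overlapping intervals. In the 408 cells with 1 to 3 keratins neutrophil markers summed to 91.2 and erythroid markers to 44.1. The part of other cells' RNA in the 49 cells without keratin was not tested.

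Within single cells the keratins varied together to a moderate degree. Over the 777 cells the Pearson correlation of UMIs per 10000 was 0.47 for Krt8 with Krt18, 0.47 for Krt8 with Krt19 and 0.33 for Krt7 with Krt8. The lowest was 0.22, for Krt7 with Krt18. In the 201 cells with 5000 UMIs or more the Krt8 and Krt18 value was 0.69, the highest of the 6 pairs, and the value for the type I genes Krt18 and Krt19 was 0.37, the lowest. The points are cells of 1 library that share depth and state, so the correlations are descriptions only. Type II genes took 46.3% of all keratin UMIs in the class, and in the 236 cells with at least 20 keratin UMIs this share had a median of 46.0%, with quartiles of 36.8% and 52.1%.

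Genes with values most like the keratins' differed between all cells and the tumor cells alone, with S100a6 first in both. Over all 5196 fl/fl cells the highest Pearson correlations with the mean of the 4 keratins belonged to S100a6 (0.63), Wfdc2 (0.61), Tm4sf4 (0.60), Tm4sf1 (0.59), Lgals2 (0.59), S100a16 (0.57), Cystm1 (0.56) and Tspan8 (0.56). S100a6, which encodes a calcium-binding protein, was also detected in 62.9% of other cells, whereas Tspan8, a tetraspanin gene, was detected in 1.36% of them and in 54.8% of the class. Over the 777 Epithelial-like cells alone the list was S100a6 (0.52), Anxa2 (0.43), Anxa5 (0.38), S100a10 (0.36), S100a16 (0.35), S100a14 (0.34), Ldha (0.34) and Ido1 (0.33). S100a10 and Anxa2 encode partners in one complex at the plasma membrane, and Ldha encodes a lactate dehydrogenase subunit. The lowest values there belonged to the immunoglobulin genes Igkc (-0.25), Ighm (-0.22) and Iglc2 (-0.20) and to the MHC class II gene H2-Aa (-0.20). Igkc was detected in 26.9% of Epithelial-like and 28.3% of other fl/fl cells.

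Of 17 other keratins listed, 3 were in the table, and the rest were not analysed here. Krt23, a type I keratin, was detected in 58 Epithelial-like fl/fl cells (7.46%) and in 0 of 4419 other cells, which allows a share of cells with a UMI of up to 0.0679% (3 counts), a limit on detection at this depth and not on expression. Krt14, a type I keratin of basal cells, was detected in 26 (3.35%) and 5 cells. Krt17 was detected in 0 of 777 Epithelial-like cells, which allows a share of cells with a UMI of up to 0.386% by the same rule, and in 3 others. Vim, the intermediate filament gene of mesenchymal and blood cells, was detected in 80.3% of Epithelial-like and 61.7% of other cells, at 27.5 UMIs per 10000 in the class, between the uncorrected levels of Krt19 and Krt8.

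In the deposited scaled values all 4 keratins were higher in the cKO than in the fl/fl Epithelial-like cells by at least 0.1, as were 27.9% of all 2000 genes. Krt19, the ductal type I keratin, ran in fl/fl from -0.24 through a median of 1.22 to 10, and in cKO from -0.90 through 2.71 to 10. Its mean was 1.67 (SD 1.94 over 777 cells) in fl/fl and 3.44 (SD 2.95 over 181 cells) in cKO, a difference of 1.77. Krt8 ran from -0.25 through a median of 1.41 to 10 in fl/fl and from -1.72 through 2.52 to 10 in cKO, with means of 1.89 (SD 2.02) and 2.91 (SD 2.81) and a difference of 1.02. The cells of both libraries overlapped over most of their range for every keratin, and the differences are smaller than the SD over cells.

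Krt18 and Krt7 differed by less. The Krt18 median was 1.48 in fl/fl and 1.98 in cKO, and its means were 1.91 (SD 2.06) and 2.53 (SD 2.91), a difference of 0.62. The Krt7 median was 0.45 in fl/fl and 0.70 in cKO, and its means were 1.53 (SD 2.28) and 2.14 (SD 3.18), a difference of 0.61. In cKO cells values below the fl/fl zero level occurred in 48 of 181 cells for Krt7, 20 for Krt8, 27 for Krt18 and 5 for Krt19. Such values cannot come from counts scaled as in fl/fl, so each cKO mean holds a correction of unknown size, and the differences are between corrected scores, not expression levels.

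**Figure D3:**
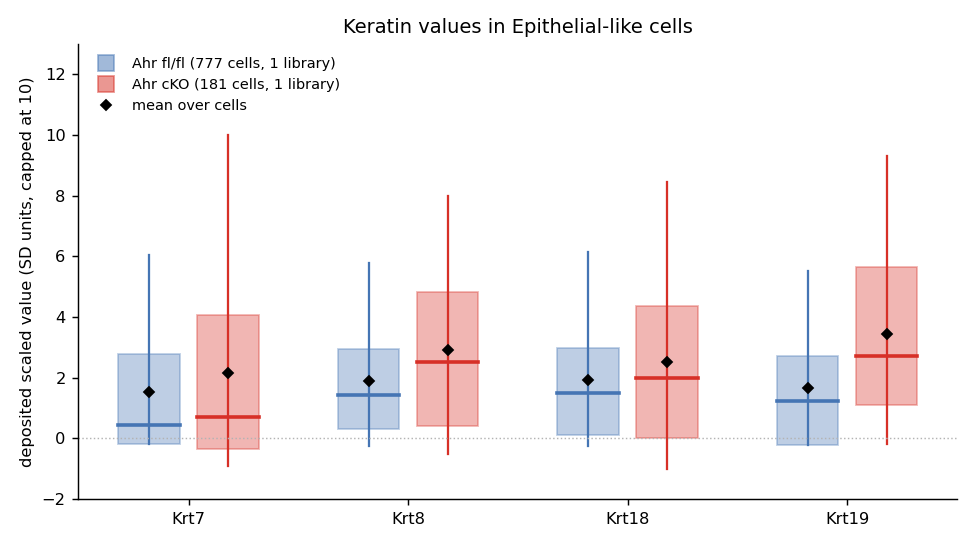
Deposited scaled values (y axis, SD units) of the 4 keratins in Epithelial-like cells of the fl/fl (777 cells) and cKO (181 cells) library. Boxes span the quartiles with the median as a line, whiskers the 5th to 95th percentiles, and diamonds the means, which lie higher in cKO for each keratin, by 0.61 to 1.77.

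The keratins were not alone in this. Of the 2000 genes, 27.9% were higher in cKO by at least 0.1 and 11.9% were lower, with a median difference of 0.0040 over all genes. At a difference of 0.25, past which all 4 keratins also lay, 15.7% were higher and 2.85% lower. Of the 1210 genes detected in at least 5% of Epithelial-like fl/fl cells, as the keratins were, 39.8% were higher and 15.3% lower by at least 0.1. Krt19 had the highest difference of the 2000 genes, Krt8 was in place 7, Krt18 in place 53 and Krt7 in place 56. These places rank scores in SD units per gene. Genes detected mainly in this class and genes detected widely are therefore not on a like scale, and the places do not rank relative change. Between Krt19 and Krt8 stood Cldn6 (1.60), a claudin gene, Lgals4 (1.22), Apol9a (1.13), Rbp2 (1.07) and Gldc (1.05). Cldn6 was detected in 3.60% of Epithelial-like fl/fl cells. Of 9 measured genes listed as keratin anchors and desmosome genes, 8 were higher and 0 lower, with a median difference of 0.37. Among them Perp differed by 0.82, the filament anchor Dsp by 0.71, the plakophilin Pkp2 by 0.67 and the periplakin gene Ppl by 0.47. Of 13 measured epithelial adhesion and identity genes 10 were higher and 2 lower (median 0.31), led by Spint2 (0.71), Cldn3 (0.58), Epcam (0.53) and the transcription factor Elf3 (0.48). Of 16 ductal and gastric-type genes 9 were higher and 3 lower (median 0.38), among them Lgals4 (1.22), Wfdc2 (0.78), Tspan8 (0.61) and Agr2 (0.57).

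Of 16 cell cycle genes 0 were higher and 10 lower (median -0.12), beside 11.9% lower among all genes. The 10 included Top2a (-0.25), Cdc20 (-0.21), Cdk1 (-0.18) and Birc5 (-0.17). Of 10 measured genes listed for a mesenchymal shift 6 were higher and 0 lower (median 0.15), beside 27.9% higher among all genes. Among the 6 were Itgb6 (0.51) and Lama3 (0.26), which encode an integrin subunit and a laminin subunit of epithelial cells, and the protease gene Mmp14 (0.26). Lama3 was detected in only 6 and Itgb6 in 33 Epithelial-like fl/fl cells, so these differences rest on few cells. Among 6 stress genes only Hspa1b passed the limit, at -0.29, while Fos (-0.044), Fosb (-0.050), Egr1 (-0.029), Atf3 (-0.052) and Hspa1a (0.0072) did not. Of the other intermediate filament genes Vim (0.20) and Nes (0.44, detected in 28 fl/fl cells of the class) were higher. The lamin gene Lmna (-0.17) was lower, with Lmnb1 (-0.070) and Des (-0.0063) within the limit. Krt14 differed by 0.22, Krt23 by -0.25 and Krt17 by 0.00014.

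The difference was not the same in all kinds of Epithelial-like cells. At a finer clustering the class fell mostly into 4 clusters of different make-up in the 2 libraries. A cluster led by Iigp1, Lmna and Ly6c1 held 26.0% of the fl/fl but 7.18% of the cKO Epithelial-like cells (202 and 13 cells). A cluster led by 2210407C18Rik, Lgals4 and Sptssb held 7.08% and 16.0% (55 and 29 cells). Clusters led by Clu, Onecut2 and Wfdc2 (303 and 80 cells) and by the metallothionein genes Mt2 and Mt1 (212 and 59 cells) made up the rest. Krt19 was higher in cKO in the Clu cluster (1.56), the Mt2 cluster (1.51) and the Lgals4 cluster (2.35), and differed by -0.095 in the Iigp1 cluster. Krt8 differed by 0.86, 0.70, 1.94 and -1.12 in the same order. Krt18 differed by 0.81, 0.64, -0.27 and -0.58, and Krt7 by 0.12, 0.43, 1.37 and 0.71. Weighted by the fl/fl shares of the fine clusters, the differences over the class were 1.17 for Krt19, 0.37 for Krt8, 0.32 for Krt18 and 0.45 for Krt7. The values for the Iigp1 cluster rest on 13 cKO cells.

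**Figure D4:**
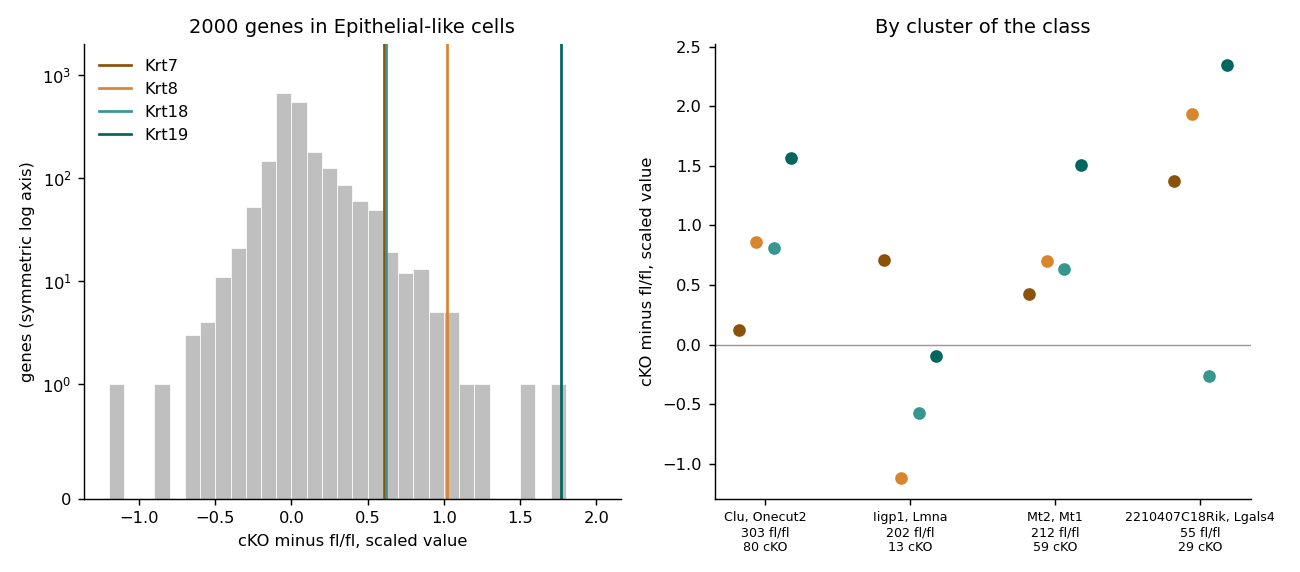
Left, histogram of the scaled difference (x axis, cKO minus fl/fl) of 2000 genes in Epithelial-like cells (y axis, number of genes, symmetric log scale), with the keratins as lines and Krt19 at the right end. Right, the same difference (y axis) of each keratin in 4 finer clusters named by 2 leading genes, with cell numbers; Krt8, Krt18 and Krt19 lie below 0 in the Iigp1 cluster, and Krt18 also in the 2210407C18Rik and Lgals4 cluster.

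The same 4 clusters differed in keratin level within the fl/fl library. Krt19 averaged 25.5 UMIs per 10000 (SD 21.8 over 55 cells) in the Lgals4 cluster, 19.6 (SD 17.05) in the Clu cluster, 15.8 (SD 17.8) in the Mt2 cluster and 11.4 (SD 12.5) in the Iigp1 cluster. Krt18 was highest in the Mt2 cluster at 20.8 (SD 18.5) and lowest in the Iigp1 cluster at 12.8 (SD 14.8). Krt8 ranged from 15.9 (SD 16.6) in the Iigp1 cluster to 26.3 (SD 25.5) in the Mt2 cluster, and Krt7 from 3.69 (SD 6.51) in the Iigp1 cluster to 5.90 (SD 5.85) in the Clu cluster. For each gene the spans of 1 SD around these means overlapped. The median total was 5425 UMIs in the Clu cluster and 823 to 1097 in the other 3. Thinned to 500 UMIs, Krt19 was detected in 64.4% of cells of the Lgals4 cluster, 53.7% of the Clu cluster, 45.2% of the Mt2 cluster and 41.1% of the Iigp1 cluster, the same order as the levels.

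Outside the class keratin RNA was rare and mostly a single UMI. Among the 9 named other classes Krt8 was detected in 1.21% (Monocyte-like) to 9.30% (Plasma cell-like, 4 of 43 cells), Krt18 in 1.18% to 5.13%, Krt19 in 0.906% to 12.8% (Erythroid-like, 5 of 39 cells) and Krt7 in 0% to 1.18%. In T cell-like cells, which should lack keratins, 30 of 766 cells held Krt8 (3.92%, median total 2585 UMIs), 27 of them with 1 UMI. In Macrophage-like cells all 26 Krt8 cells of 545 had 1 UMI. Scaled means in cKO ranged from -0.25 to -0.14 over all other classes and the 4 genes, and the differences from fl/fl from -0.15 to 0.087. The highest summed level in another named class was 0.248 UMIs of Krt8 per 10000, in Plasma cell-like cells.

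Summed over all other fl/fl cells, the mix of the 4 keratins was close to the mix in the tumor cells. Of 820 keratin UMIs in all other fl/fl cells, Krt7 took 8.54% (6.71% to 10.7%), Krt8 36.8% (33.5% to 40.2%), Krt18 27.0% (23.9% to 30.1%) and Krt19 27.7% (24.6% to 30.9%). The corresponding shares of 41979 keratin UMIs in Epithelial-like cells were 8.42%, 37.9%, 26.1% and 27.6%, each inside those intervals. Of the 820 UMIs, 232 came from an unnamed cluster led by hemoglobin genes and 142 from one led by Ptma and Stmn1. Krt18 took 15.1% and 40.8% of their keratin UMIs, so the summed mix averages over clusters that differ. Shares at or below those in T cell-like cells are read here as background and not as expression. For Krt8 the Macrophage-like (4.77%), Neutrophil-like (5.41%), Erythroid-like (7.69%) and Plasma cell-like (9.30%) shares were above that of T cell-like cells (3.92%), with intervals that overlapped it. Over the named classes and 4 keratins, 1 interval of the shares without thinning did not overlap that of T cell-like cells, Krt19 in Erythroid-like cells (4.30% to 27.4%, against 1.70% to 4.16%). It rests on 5 of 39 cells, 3 of them with 1 UMI. By summed level the Krt19 intervals overlapped, at 0.0911 to 0.467 (Erythroid-like) and 0.0572 to 0.130 (T cell-like) UMIs per 10000. Thinned to 500 UMIs, the Krt19 shares were 3.14% and 0.687%. The part of depth in the Erythroid-like share was not tested.

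In 3 unnamed clusters the interval of the Krt18 share did not hold the 26.1% of Epithelial-like cells. In the cluster led by Vim, Atf3, Ccl2 and Cd14, Krt18 took 78.4% of 37 keratin UMIs (61.8% to 90.2%). There Krt18 was detected in 26 of 350 fl/fl cells (7.43%, 4.91% to 10.7%), Krt8 in 4, Krt7 in 2 and Krt19 in 2. Of the 26 cells 25 held no other keratin and 25 held 1 UMI of Krt18. The other 18 epithelial markers (without Lcn2, which neutrophils also make) summed to 0.127 UMIs per 10000 in the 26 cells (0.0153 to 0.458) and to 0.137 in the cluster's cells without Krt18. Barcodes shared between the libraries made up 332 of the 350 cells. Krt18 was detected in 23 of those 332 (6.93%, 4.44% to 10.2%) and in 3 of the other 18 (16.7%, 3.58% to 41.4%). Since nearly all cells of the cluster share a barcode with a similar cKO cell, the library they came from is uncertain, and the part of shared barcodes in the Krt18 share was not tested.

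The cluster led by the cell cycle genes Ptma, Stmn1 and H2afz also held more Krt18, at 40.8% of 142 keratin UMIs (32.7% to 49.4%), in 30 of 264 cells (11.4%, 7.80% to 15.8%). Here 13 of the 30 held no other keratin, the highest count was 7 UMIs, and 10 cells of the cluster held 3 or 4 keratins. The cluster led by hemoglobin genes, with the collagen genes Col1a1 and Col3a1 among its leading genes, tilted the other way, with Krt8 at 47.4% (40.8% to 54.1%) and Krt18 at 15.1% (10.7% to 20.4%) of 232 UMIs. At resolution 2 the fl/fl library held an Erythroid-like cluster led by Hba-a2 (49 cells) and a Fibroblast-like cluster led by Sparc (55 cells). Keratins were not counted apart for these, so the values of the mixed cluster cannot be given to either cell type. Krt8 was detected there in 31 of 104 cells (29.8%, 21.2% to 39.6%). The other epithelial markers summed to 13.4 UMIs per 10000 in this cluster, the highest outside the class and against 85.5 in Epithelial-like cells. In a further cluster, led by H2-DMb1 and Ms4a6c, Krt8 took 19.4% of 31 keratin UMIs (7.45% to 37.5%).

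**Figure D5:**
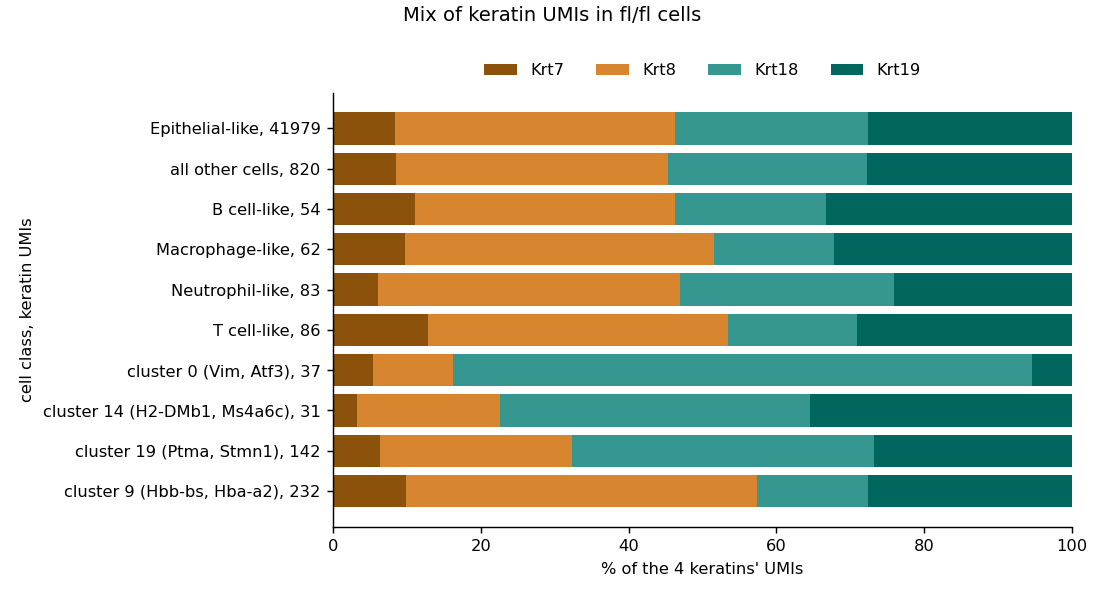
Share of each keratin among the 4 keratins' UMIs (x axis, percent) in fl/fl cells, for classes and unnamed clusters with at least 30 keratin UMIs (y axis, with the number of UMIs). The bars of all other cells and of Epithelial-like cells are nearly equal, and Krt18 takes 78.4% in the cluster led by Vim.

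Few cells outside the class held a full set. Of 4419 other fl/fl cells, 3965 (89.7%) held no keratin, 384 held 1, 47 held 2, 17 held 3 and 6 held all 4. The 23 cells with 3 or 4 keratins had a median total of 4264 UMIs, and their 18 other epithelial markers summed to 29.1 UMIs per 10000 (26.8 to 31.6), against 1.30 (1.24 to 1.36) in cells with none. Of these 23 cells 10 belonged to the cell cycle cluster and 7 to the mixed cluster with hemoglobin and collagen genes. The rule for possible doublets was met by 6 of the 23.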

How the data were processed

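The authors deposited one table of scaled scores (per gene, in SD units, capped at 10) for 2000 genes in the cells of 2 libraries; the submitters' processing notes name Cell Ranger 3.0.0, Seurat 3.1.4 and the builds mm10 and GRCm38, with no role or order, and further steps are not given in the sources used here. A cell's library was read from its name. Keratins and gene lists were chosen with earlier results of these data known.

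In the fl/fl library whole UMI counts and cell totals were recovered from the spacing of the values (tolerance 1e-05), a step chosen after seeing the data. On simulated data with 1889 genes and 1500 cells it returned 100% of counts and totals. The 2000 genes held a median of 14.6% of a cell's total. The cKO values below the zero level allowed no recovery.

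All cells were clustered without keratin genes (scanpy 1.11.5, igraph 0.11.9, 30 components, 15 neighbours, Leiden resolution 1). Keratins were kept out of the epithelial markers because naming the class by them would be circular. A cluster was named where the best mean marker difference was at least 0.5, the next was under 0.5 of it, at least 3 markers were detected and its top 10 genes did not go against the name. No doublet caller was run, and possible doublets (3 markers from each of 2 cell families) were left out only as an alternative. Names are rebuilt here and may differ from the study's.

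Means, SDs, differences and Pearson correlations over cells are descriptions. Shares carry exact Clopper-Pearson and summed counts exact Poisson 95% intervals, for counting error only, and a count of 0 allows up to 3 counts. A difference of at least 0.1 was counted as higher or lower. Named genes were the 4 keratins, the 8 most and 4 least correlated genes, other measured keratins, and from each list every measured gene up to 6 or else the 4 with the largest difference. Of these, 1 gene is not reported here. Genes ranked between Krt19 and Krt8, the check of Ahr and the 19 epithelial markers were added after seeing values. Promoters are from RefSeq (GRCm38.p6).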

Additional observations from a re-analysis of the deposited data

How the results depend on the processing

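No replicate could be left out, since each genotype has 1 library. No paired analysis was possible because the groups share only 1 replicate number. Of 273 values under alternative settings, 188 stayed within the tolerance (0.1 for scores, the 95% interval for shares, 1.5 times for counts), 85 moved and 0 reversed. Some of the 188 could not move. The 4 values under a limit of 0.25 repeat the main differences, and the genes most like the keratins over all fl/fl cells do not depend on the clusters. The number that stayed is therefore not a measure of stability. Values here are in the order Krt7, Krt8, Krt18, Krt19 unless genes are named. Resolution 0.5 and keratins kept in the clustering and among the markers moved none of 35 values each.

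At resolution 2 the Iigp1 and Lmna cluster lost the class name. The class then held 10.97% of fl/fl cells, the Krt7 difference was 0.450, the shares of cells with a UMI were 60.7%, 85.1%, 82.1% and 77.4%, and 49.8% of cells held all 4 keratins and 2.81% none. Outside the class, cells with 2 or more keratins went from 1.58% to 4.41%. With 15 components the class held 13.5% of fl/fl cells, the differences were 0.898 for Krt8 and 0.472 for Krt18, the shares 56.1%, 85.1%, 81.4% and 76.8%, and 45.6% held all 4 and 3.00% none. Without possible doublets the differences were 0.793 for Krt7, 0.915 for Krt8 and 1.51 for Krt19, and the class held 3.41% of cKO cells. Medians over cells differed by 0.2498 for Krt7, 0.503 for Krt18 and 1.49 for Krt19. With finer clusters weighted as in fl/fl the differences were 0.449, 0.375, 0.322 and 1.17. Counting only cells at least 1 SD above zero gave shares of 47.0%, 67.4%, 68.2% and 61.1%, with 26.5% holding all 4 and 10.3% none. Of the 8 genes most like the keratins within the class, 5 remained at resolution 2 and with 15 components and 3 with Spearman's correlation. The cause of these moves was not tested.

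The next 3 settings were chosen after seeing the data. In cells with at least 1000 UMIs the shares were 71.0%, 90.5%, 89.9% and 87.5%, with all 4 in 64.5% and none in 1.94%. Thinned to 500 UMIs they were 22.2%, 57.5%, 50.2% and 48.7%. Without barcodes found in both libraries the class held 17.1% of fl/fl and 4.57% of cKO cells, by construction of a smaller total, and the keratin values stayed within the tolerance. Removing the cKO correction gave no value in Epithelial-like cells, because every keratin was detected in over 40% of fl/fl cells in a cluster of the class. All 4 keratins were detected in fewer of the shallow cells, which also differed in keratin level and other markers, so the part of depth was not tested.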
